A study of Mus musculus with 2 samples.

Results

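The genes described here are those of the vacuolar proton pump and of the lysosome, the compartment that the pump acidifies. The set was given as a list of 43 gene symbols, 22 for the pump and 21 for lysosomal enzymes, their helpers and lysosomal membrane proteins, out of 43346 Ensembl gene IDs in the deposited tables. All 43 were matched by symbol.

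RNA was measured in the granule layer of the cerebellum, in 2 areas cut out by laser capture, with 1 sequencing library for each. The labels give both areas as adult male wild-type tissue of the B6NCrl strain at an age of 8 months, each 18000 square microns in size, with 50 cells as the stated starting quantity. Both areas form 1 group, called replicate 1 and replicate 2 below, and carry the same donor label. The labels do not say whether the areas came from separate animals, so the spread between them may be technical. There is no second condition, so the design compares genes with genes within the layer and the areas with each other.

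The vacuolar proton pump, or V-ATPase, is a rotary machine in the membranes of lysosomes, endosomes and synaptic vesicles. Its outer part, V1, splits ATP and turns a central stalk. Its membrane part, V0, carries protons through a ring of small subunits past subunit a. Lysosomal proteases and glycosidases work in the acid lumen made by the pump. In neurons the same pump also powers the loading of neurotransmitter into synaptic vesicles, so the level of its RNA is not a measure of lysosomes alone.

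The libraries of replicates 1 and 2 summed to 20532709 and 19939370 expected counts, of which 19962271 and 19261911 fell on genes. Spike-in RNA took 2.78% and 3.40% of the totals. The labelled tissue was checked against 8 granule neuron markers, all of which were detected, with a median of 284 ± 13.8 TPM (SD, n = 2). TPM, the deposited transcript abundance out of 1e6, is corrected for transcript length, so levels of different genes can be set side by side. The areas differed most plainly in red blood cell RNA, where 5 markers summed to 5040 TPM in replicate 1 and 390.1 in replicate 2. Both libraries also held RNA of other cell types, and in such tissue fewer cells of a type and less RNA per cell cannot be told apart.

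Pump RNA was abundant and lysosomal RNA was moderate. A gene counted as detected where both areas gave it a TPM of 1 or more and 5 or more expected counts, and 37 of the 43 genes met this, beside 50.4% of all 21474 protein-coding genes. Of the pump genes 18 of 22 were detected, and of the lysosomal genes 19 of 21. The median over the 22 pump genes was 132.5 TPM in replicate 1 and 142.1 in replicate 2. The median over the 21 lysosomal genes was 17.4 and 13.9 TPM. Over detected members alone the medians were 170.2 and 180.6 TPM for the pump and 24.2 and 21.8 TPM for the lysosomal genes, beside 14.4 and 14.1 TPM for all detected protein-coding genes. The difference of the medians of log2(TPM + 1) was 2.86 in replicate 1 and 3.26 in replicate 2, a mean of 3.06 ± 0.29 (SD, n = 2), or 8.32-fold on that scale. With 2 areas no permutation test can reach 0.05, so this difference has no p-value.

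Above 100 TPM in both areas stood 15 pump genes and 1 lysosomal gene, Ctsb. No lysosomal gene was above the pump median in either area, and Atp6v0a2 was the 1 detected pump gene below the lysosomal median. Summed over members, pump RNA came to 4351 and 4698 TPM and lysosomal RNA to 702.0 and 661.6 TPM. Among detected protein-coding genes the median detected pump gene lay at percentile 93.7 and the median detected lysosomal gene at percentile 63.0. The size of the gap depended on how it was summarized: it was 1.67 with the mean over members in place of the median, a mean that takes in the paralogues with no counts, and 2.52 against the 11 enzymes alone.

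**Figure D1:**
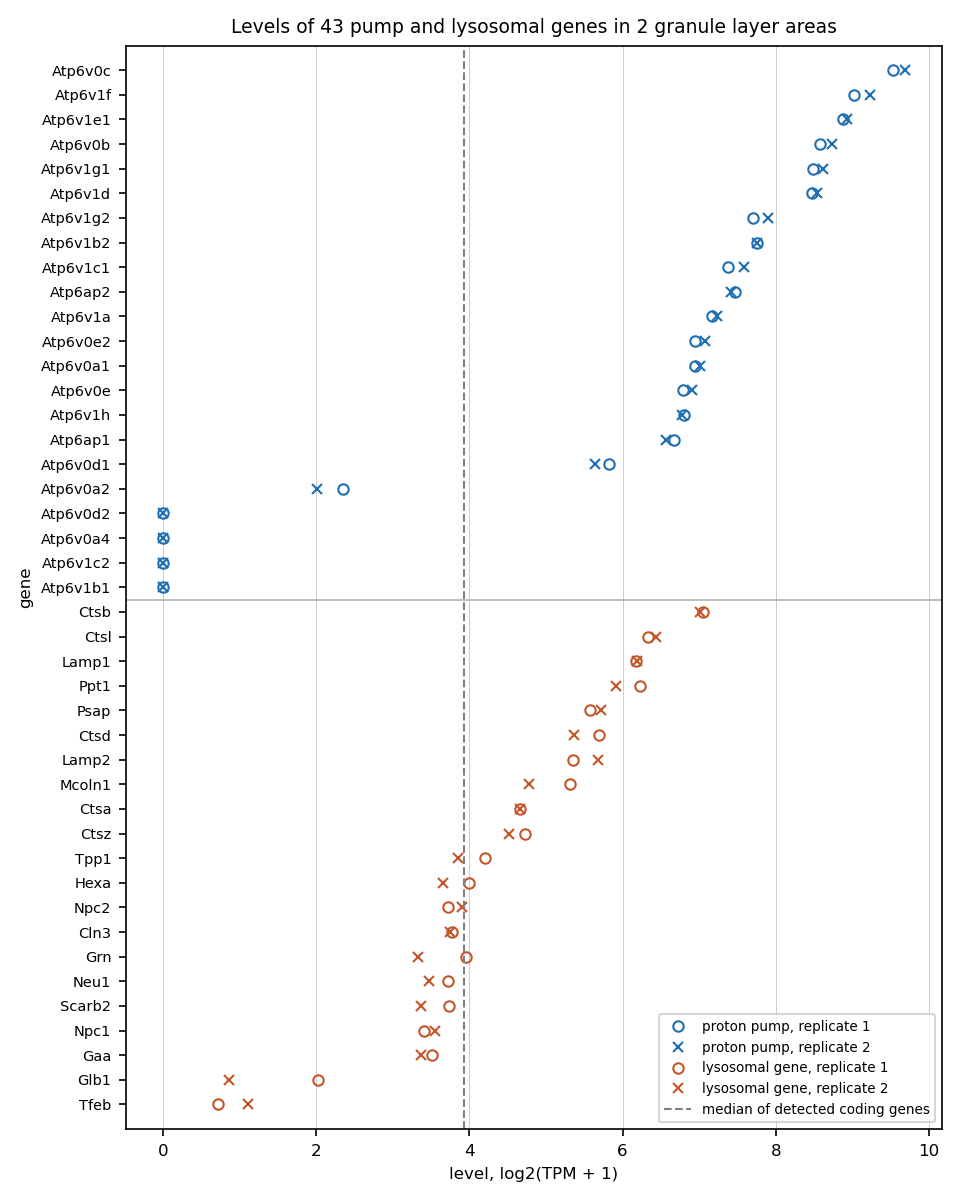
Level of each of the 43 genes as log2(TPM + 1), with replicate 1 as open circles and replicate 2 as crosses, pump genes above the horizontal line and lysosomal genes under it. The dashed line marks the median of detected protein-coding genes; 17 of the 18 detected pump genes lie to its right in both areas, while the lysosomal genes lie on both sides of it.

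Among V1 subunits, 9 of 11 genes were detected, and all 9 exceeded 100 TPM. Atp6v1f, which encodes subunit F of the central stalk, was the highest V1 gene at 521 TPM in replicate 1 and 599.7 in replicate 2, or 560.5 ± 55.4 (SD, n = 2). Atp6v1e1, for the peripheral stalk subunit E, followed at 469 and 485 TPM. Atp6v1d, for the central stalk subunit D, gave 354 and 369 TPM. The areas kept this order, and the ranges of these genes did not overlap. In replicate 1, however, the gap between Atp6v1f and Atp6v1e1 was smaller than the difference of Atp6v1f between the areas. Atp6v1g1, treated with its paralogue below, gave 357 and 392 TPM and overlapped Atp6v1d in range. Atp6v1b2, for the nucleotide-binding subunit B, stood at 216 TPM in both areas, and Atp6v1a, for the catalytic subunit A, at 143 and 149.9 TPM. The pump carries these subunits A and B in equal numbers, and the deposited level of Atp6v1b2 was the higher one in both areas. That level takes in the retained-intron model Atp6v1b2-203 at 57.85 and 51.08 TPM. The main coding transcripts lay closer, Atp6v1b2-201 at 144 and 153 TPM and Atp6v1a-202 at 138 and 144.9 TPM. By counts, which are not corrected for length, Atp6v1a was higher, with 10075 and 10256 against 7394 and 7533. Atp6v1c1, for subunit C, gave 165 and 192 TPM, and Atp6v1h, for the regulatory subunit H, gave 110.2 and 109 TPM. Atp6v1c1 overlapped Atp6ap2 in range, so their order is not fixed by these data.

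Among V0 subunits, 7 of 9 genes were detected, over a wide range. Atp6v0c encodes the proteolipid that is present in many copies in the proton-carrying ring, and it was the highest of all 43 genes at 738 and 823 TPM, or 781 ± 60.1 (SD, n = 2). The gene lies on chromosome 17 from base 24163866 to 24169702 on the minus strand of GRCm38. A processed pseudogene copy, Atp6v0c-ps2, held 118.57 and 79.63 expected counts beside 13684 and 14720 for the gene itself. The deposited posterior SD of the gene's count was 21.4 in replicate 1, small beside its count. Atp6v0b, for the related ring subunit c'', was second in V0 at 381 and 427 TPM. Atp6v0d1, for the subunit that couples the ring to the central stalk, was lower at 55.7 and 48.9 TPM.

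The 2 accessory proteins of the pump were both detected. Atp6ap2, also known as the prorenin receptor, gave 175 and 169.6 TPM, and Atp6ap1, which serves assembly of V0, gave 101.4 and 94.1 TPM. Of 13 genes for assembly factors and regulators of the pump, 11 were detected with a list median of 31.1 and 27.7 TPM. The highest were Oxr1 at 131 ± 3.09 TPM (SD, n = 2), Vma21 at 96.8 ± 1.47, Rogdi at 91.2 ± 5.40 and Dmxl2 at 73.8 ± 7.17. Vma21 is a chaperone for V0 assembly, and Rogdi and Dmxl2 belong to the complex that joins V1 to V0.

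The paralogues of the pump fell into 2 patterns. For subunits B, C, d and a, 1 paralogue held nearly all RNA, while for subunits G and e both paralogues were well expressed. A further 4 paralogues, known for tissues such as kidney, inner ear, lung and bone, had no counts in either area: Atp6v1b1, Atp6v1c2, Atp6v0a4 and Atp6v0d2. A count of 0 still allows up to 3 counts, which limits Atp6v1b1 to a share of 0.0444% and 0.0457% of subunit B in the 2 areas. The matching limits were 0.111% and 0.0982% for Atp6v1c2 in subunit C, 0.231% and 0.271% for Atp6v0d2 in subunit d, and 0.105% in each area for Atp6v0a4 in subunit a. These limits cover counting error only, because amplified reads without molecular identifiers are not independent molecules. For Atp6v1c2, Atp6v0d2 and Atp6v0a4 the authors' own deposited intervals are wider. Their upper bounds were 1.27 and 1.29 TPM for Atp6v1c2, 0.65 and 0.66 for Atp6v0d2 and 1.14 and 1.25 for Atp6v0a4. Shares above the counting limits are thus not excluded for these paralogues. For Atp6v1b1 the upper bounds of 0.0936 and 0.0952 TPM lay just under the TPM of 3 counts, 0.0958 and 0.0986. Of 6 markers listed for osteoclasts and kidney intercalated cells, 2 were detected. They were Aqp6 at 5.83 and 3.64 TPM and Ctsk at 2.03 and 1.91 TPM, while Ocstamp and Foxi1 had no counts in either area.

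Subunit a steers the pump to its compartment, and Atp6v0a1 is the paralogue known from neurons and synaptic vesicles. Atp6v0a1 had 122 and 127.7 TPM and Atp6v0a2 had 4.08 and 3.04 TPM, a share for Atp6v0a1 of 96.8% and 97.7%. The share rests on the length assigned to Atp6v0a1, treated with the transcripts below, and it was 90.3% by counts. Tcirg1, the paralogue known from osteoclasts, was outside the 43 genes and had 10 and 26 counts, or 0.71 and 1.18 TPM, so it did not pass detection. Atp6v1e2 and Atp6v1g3, the remaining paralogues of subunits E and G, had no counts in either area.

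Subunit G is part of the peripheral stalk, and Atp6v1g2 is the form known from brain. Atp6v1g1 had 357 and 392 TPM and Atp6v1g2 had 207 and 239 TPM, so Atp6v1g1 held 63.3% and 62.2% of the pair. By counts, which are not corrected for length, the share of Atp6v1g1 was 55.0%. Atp6v0e and Atp6v0e2 encode the small subunit e, and Atp6v0e2 is the form known from brain. They came to 109.2 and 119 TPM for Atp6v0e and 122 and 134 TPM for Atp6v0e2, a share for Atp6v0e2 of 52.8% and 52.9%. The near equal split did not hold by counts, where Atp6v0e2 held 72.5%.

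**Figure D2:**
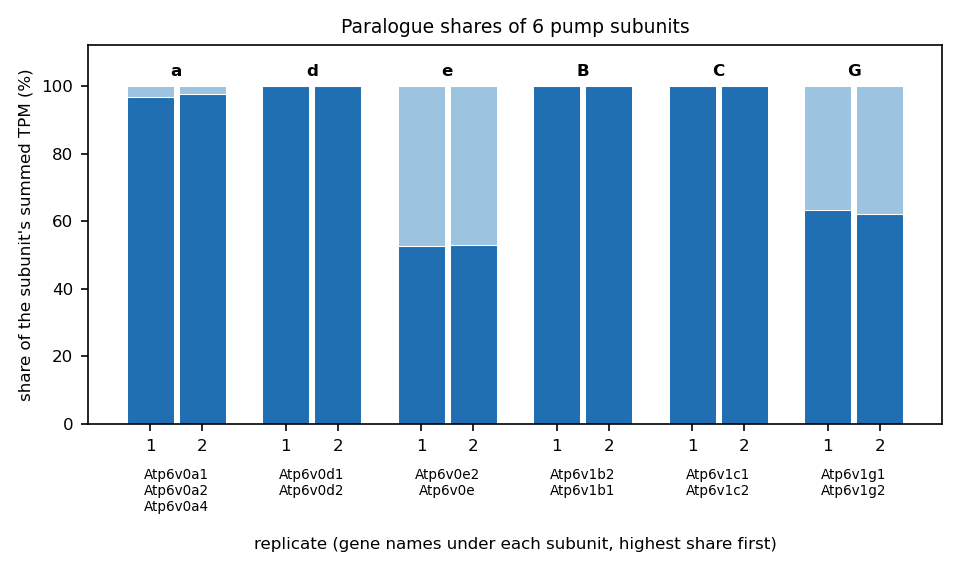
Share of each paralogue in the summed TPM of its subunit, in percent, for 6 subunits and both replicates, with the leading paralogue in dark blue at the bottom. Subunits d, B and C show 1 colour, subunit a shows a thin second band for Atp6v0a2, and subunits e and G are split between both genes.

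The proteases Ctsb and Ctsl reached the highest levels of the lysosomal set, while the other proteases lay lower. Ctsb, the cysteine protease cathepsin B, gave 131 and 129 TPM, or 130.0 ± 2.06 (SD, n = 2), on chromosome 14 from base 63122462 to 63145923 of GRCm38. Ctsl, for cathepsin L, gave 79.7 and 85.8 TPM. Ctsd, for the aspartic protease cathepsin D, gave 50.7 and 40.2 TPM. In the M21 annotation 34.4% of its exonic bases also belong to the gene Gm49369 on the same strand. Gm49369 has no deposited counts, so the deposited counts do not divide reads between it and Ctsd. Ctsz, for the carboxypeptidase cathepsin Z, gave 25.5 and 21.8 TPM. Tpp1, the tripeptidyl peptidase lost in a form of neuronal ceroid lipofuscinosis, was lower at 17.4 and 13.4 TPM. These 5 proteases kept their order in both areas, from Ctsb to Tpp1.

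Among the other enzymes, Ppt1, the thioesterase that takes palmitate off proteins, was the highest of them at 73.9 and 59.1 TPM. Ctsa, the protective protein that holds β-galactosidase and neuraminidase in a complex, had 24.2 TPM in both areas. Its partner Neu1, the neuraminidase, gave 12.1 and 10.1 TPM. The other partner Glb1, the β-galactosidase, had 119.8 and 31 counts, or 3.05 and 0.81 TPM, and so was not detected in replicate 2. Hexa, the α chain of β-hexosaminidase, gave 14.9 and 11.6 TPM, and Gaa, the acid α-glucosidase that breaks down glycogen, gave 10.4 and 9.29 TPM. Among 34 further soluble enzymes and cofactors 27 were detected, with a list median of 5.45 and 4.68 TPM. The highest were Asah1, the acid ceramidase, at 32.3 ± 5.50 TPM (SD, n = 2), Gm2a, the GM2 activator, at 31.7 ± 1.65, Dnase2a at 25.8 ± 0.014 and Lgmn, the legumain protease, at 24.9 ± 3.20.

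Among the soluble cofactors, Psap, the precursor of the saposins that present sphingolipids to enzymes, gave 46.6 and 51.5 TPM. Npc2, which carries cholesterol in the lumen, gave 12.1 and 13.9 TPM. Grn, the progranulin gene, gave 14.5 and 9.05 TPM, so Npc2 and Grn overlapped over the areas.

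Of 6 lysosomal membrane proteins all were detected. Lamp1, a major glycoprotein of the membrane, gave 71.5 and 71.8 TPM, and Lamp2, its relative, 39.9 and 50.4 TPM. Mcoln1, the TRPML1 calcium channel, gave 38.7 and 26.3 TPM, so Mcoln1 and Lamp2 did not overlap but lay close in replicate 1. Cln3, the gene of juvenile neuronal ceroid lipofuscinosis, gave 12.7 and 12.4 TPM. Scarb2, the receptor that carries glucocerebrosidase to lysosomes, gave 12.3 and 9.31 TPM. Npc1, the cholesterol exporter, gave 9.57 and 10.7 TPM, and its range lay within that of Scarb2. In a list of 18 further membrane proteins 15 were detected, led by Cd63 at 103.7 ± 1.86 TPM (SD, n = 2), Laptm4a at 53.0 ± 4.76, Tmem192 at 37.2 ± 3.83 and Hgsnat at 31.3 ± 2.30. Mcoln2 and Mcoln3, relatives of Mcoln1, had no counts in either area.

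Tfeb, a transcription factor of lysosomal genes, had 16 and 30 counts, or 0.65 and 1.16 TPM, and did not pass detection. The deposited posterior mean TPM was higher, at 2.65 and 3.18, with lower interval bounds of 1.43 and 1.94. The estimate used thus decides the detection of Tfeb. Of 17 genes for the other members of its family and for nutrient signalling at the lysosome 16 were detected, with a median of 21.2 and 20.96 TPM. They were led by subunits of the Ragulator complex, which anchors mTORC1 signalling to the lysosome: Lamtor5 at 329.6 ± 30.5 TPM (SD, n = 2), Lamtor2 at 177 ± 3.32, Lamtor4 at 86.8 ± 0.54 and Lamtor1 at 73.9 ± 5.74. Tfec had no counts in either area. Sorting of enzymes to the lysosome was represented by 9 genes, all detected, led by Gnptg at 70.2 ± 2.08 TPM and M6pr, a mannose 6-phosphate receptor, at 38.3 ± 5.04. Igf2r, the larger mannose 6-phosphate receptor, gave 11.4 ± 0.955, and Gnptab gave 5.37 ± 0.028.

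TFEB and its relatives are known to bind an element built on the word TCACGTG in promoters of lysosomal genes, so the promoter sequences of the members were searched for it. The windows ran from 250 bases before to 50 after each start, 300 bases each, from RefSeq on GRCm38.p6, and 35 of the 43 genes had at least 1 window, 43 windows in all. TCACGTG was sought on both strands, as was the palindromic CACGTG contained in it. TCACGTG occurred in 11 windows of 11 genes, 4 of 19 pump windows and 7 of 24 lysosomal windows, beside 3.77% of all 32851 windows of the table. The genes were Atp6v0b, Atp6v0d1, Atp6v0e and Atp6v1a for the pump and Cln3, Ctsa, Ctsd, Gaa, Glb1, Lamp1 and Mcoln1 for the lysosome. CACGTG alone added Ctsl, which made 12 windows or 27.9%, beside 7.15% of all windows. In 6 windows it occurred at least 2 times, beside 0.594% of all windows, and Lamp1 held it 4 times. The 11 genes ranged in level from Glb1 at 1.93 ± 1.58 TPM (SD, n = 2) to Atp6v0b at 404 ± 32.7. A match is a description of the letters and not a measured binding site. The word is already known from promoters of lysosomal genes, so its higher share among the members is not independent support. Stretches outside annotated exons are printed to show where the word sits in genes of high and low level, 5′ to 3′ on the gene's strand, with CACGTG in capitals. They are Lamp1 at chr8:13159061-13159160 on the plus strand, Mcoln1 at chr8:3500357-3500456 on the plus strand, Gaa at chr11:119267787-119267886 on the plus strand, Atp6v0b at chr4:117887334-117887433 on the minus strand and Atp6v1a at chr16:44139306-44139405 on the minus strand. The Mcoln1 window holds a further CACGTG at base -45 from the start, outside the printed stretch.
Lamp1: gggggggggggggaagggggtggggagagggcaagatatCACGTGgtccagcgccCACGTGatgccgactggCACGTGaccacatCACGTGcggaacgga
Mcoln1: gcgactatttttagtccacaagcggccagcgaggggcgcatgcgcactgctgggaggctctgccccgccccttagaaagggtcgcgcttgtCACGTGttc
Gaa: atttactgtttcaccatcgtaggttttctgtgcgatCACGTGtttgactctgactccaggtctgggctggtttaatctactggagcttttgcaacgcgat
Atp6v0b: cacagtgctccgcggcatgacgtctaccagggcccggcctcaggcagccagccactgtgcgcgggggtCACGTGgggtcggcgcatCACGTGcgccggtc
Atp6v1a: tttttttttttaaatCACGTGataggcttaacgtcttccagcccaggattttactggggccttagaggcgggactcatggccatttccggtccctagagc

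The deposited transcript tables split each gene among its annotated transcripts. A total of 37 members had at least 50 counts in both areas, and in 32 of them the same transcript held at least 50% of the gene's TPM in both. Of these, 6 pump and 8 lysosomal genes have a single transcript in the tables and so hold 100% by construction. Among genes with 2 or more transcripts, 1 transcript led in this sense in 12 of 12 pump genes and 6 of 11 lysosomal genes. With shares of counts in place of TPM the contrast was smaller. By counts Grn-201 held 69.6% and 74.2%, Lamp2-202 52.8% and 61.5% and Mcoln1-201 51.1% and 55.8%, so these lysosomal genes also passed. Atp6v0a1 did not pass by counts, with Atp6v0a1-201 highest at 44.3% and 43.04%. A share of TPM of at least 95% in both areas was reached by 8 of those 12 pump genes and 0 of those 11 lysosomal genes. By counts Atp6v0e-201 fell short of it, at 89.0% in replicate 1. No share over all genes is given beside these numbers, so they describe the members only. Pump genes with a smaller leading share of TPM were Atp6v0a1, Atp6v1b2, Atp6v0b and Atp6v1h. Atp6v1b2-201 held 66.9% and 70.7% of its gene, with the retained-intron transcript Atp6v1b2-203, a model of 507 bases, at 26.8% and 23.7%. These are shares of TPM, which weigh short models more: by counts Atp6v1b2-201 held 91.2% and 92.0% and Atp6v1b2-203 held 5.47% and 4.61%. Atp6v0b-201 held 70.0% and 73.7%, with the retained-intron transcript Atp6v0b-204 at 22.4% and 17.7%, or 15.3% and 11.9% by counts.

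By share of TPM, several lysosomal genes were split more evenly. Ctsd had Ctsd-201 in front at 56.2% in replicate 1 and Ctsd-202 in front at 58.8% in replicate 2. Cln3 led with Cln3-214 at 24.5% in replicate 1 and with Cln3-203 at 37.3% in replicate 2, at 275 and 272 counts for the whole gene. Cln3-214 is a model of 537 bases annotated as a processed transcript, not as coding, and held 8.49% and 0% by counts. By counts Cln3-201 led in replicate 1 with 36.0% and Cln3-203 in replicate 2 with 41.8%. Mcoln1 led with the retained-intron transcript Mcoln1-205 at 49.2% in replicate 1 and with Mcoln1-206 at 39.5% in replicate 2, models of 571 and 626 bases. By counts the leading transcript of Mcoln1 was Mcoln1-201, of 2065 bases, in both areas, with 51.1% and 55.8%. Ppt1 was split alike in both areas, with Ppt1-201 at 59.0% and 59.2% and Ppt1-203, annotated for nonsense-mediated decay, at 25.4% and 25.2%. Psap-205 held 66.9% and 52.6% and Psap-203 the remaining 33.1% and 47.4%. All these shares are model estimates that assign reads among overlapping transcripts.

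**Figure D3:**
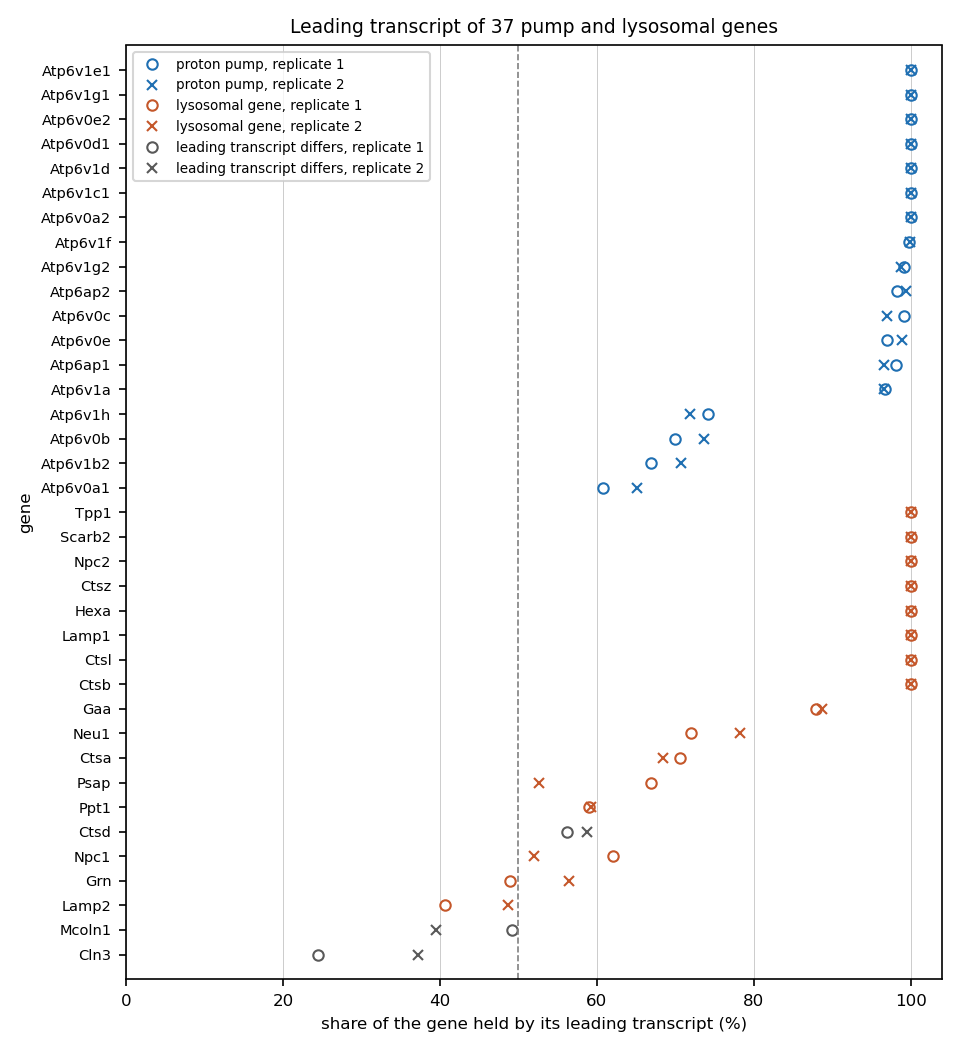
Share of each gene's TPM held by its leading transcript, in percent, for the 37 members with at least 50 counts in both areas, with replicate 1 as open circles, replicate 2 as crosses and a dashed line at 50%. Grey marks the 3 genes, Ctsd, Mcoln1 and Cln3, whose leading transcript by share of TPM differed between the areas.

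Lamp2 was split among 3 coding transcripts with different last coding exons, which give the protein its 3 known cytosolic tails. Lamp2 lies on the minus strand of chromosome X from base 38401357 to 38456454 of GRCm38. Lamp2-202 led with 40.6% and 48.7%, Lamp2-203 held 30.7% and 28.9%, and Lamp2-201 held 14.0% in both areas. A retained-intron transcript, Lamp2-204, held 10.1% and 7.80%. These are shares of TPM. By counts Lamp2-202 held 52.8% and 61.5%, Lamp2-203 23.7% and 21.8% and Lamp2-201 8.68% and 8.44%. Lamp2-204 held 10.4% and 7.79% by counts, above Lamp2-201 in replicate 1. The ranges of the 3 coding transcripts did not overlap, so the order was the same in both areas. Lamp2-202 ends in the tail known as LAMP-2B, Lamp2-203 in LAMP-2C and Lamp2-201 in LAMP-2A, the receptor of chaperone-mediated autophagy. Their last coding exons lie at chrX:38421715-38421851 for Lamp2-202, chrX:38402142-38402281 for Lamp2-203 and chrX:38405435-38405571 for Lamp2-201. The last 45 coding bases are shown from GENCODE M21, with the stop codon in capitals, because they set the 3 tails apart.
Lamp2-202: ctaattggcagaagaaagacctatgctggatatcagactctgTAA
Lamp2-203: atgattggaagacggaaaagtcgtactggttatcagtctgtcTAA
Lamp2-201: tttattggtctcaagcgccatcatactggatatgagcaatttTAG
Lamp2-202 and Lamp2-203 were identical at 30 of 45 positions, Lamp2-201 and Lamp2-203 at 23, and Lamp2-201 and Lamp2-202 at 22.

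The transcript split also set the length by which a gene's level was divided. For most genes the deposited TPM lay near the value obtained with the longest coding transcript. Atp6v0a1 was the main exception, with 125 TPM as deposited and 24.8 TPM on that basis. Its leading transcript, Atp6v0a1-206, is a model of 373 bases with 60.8% and 65.2% of the gene's TPM. The transcript of 4008 bases, Atp6v0a1-201, held 8.86% and 8.47% of the TPM but 44.3% and 43.04% of the gene's counts. With the longest coding length the share of Atp6v0a1 in subunit a became 87.5%. Atp6v0e moved from 114 to 31.0 TPM, but there the short transcript held most of the gene: Atp6v0e-201, of 794 bases, held 96.9% and 98.9%, and the longest, of 2812 bases, held 3.07% and 1.15%. On the longest lengths Atp6v0e2 would hold 80.5% of subunit e. Among lysosomal genes Mcoln1 moved from 32.5 to 13.7 TPM and Cln3 from 12.6 to 5.22 TPM. The gap between the pump and lysosomal medians on the longest lengths was 3.19 ± 0.17 (SD, n = 2) on the log2(TPM + 1) scale.

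**Figure D4:**
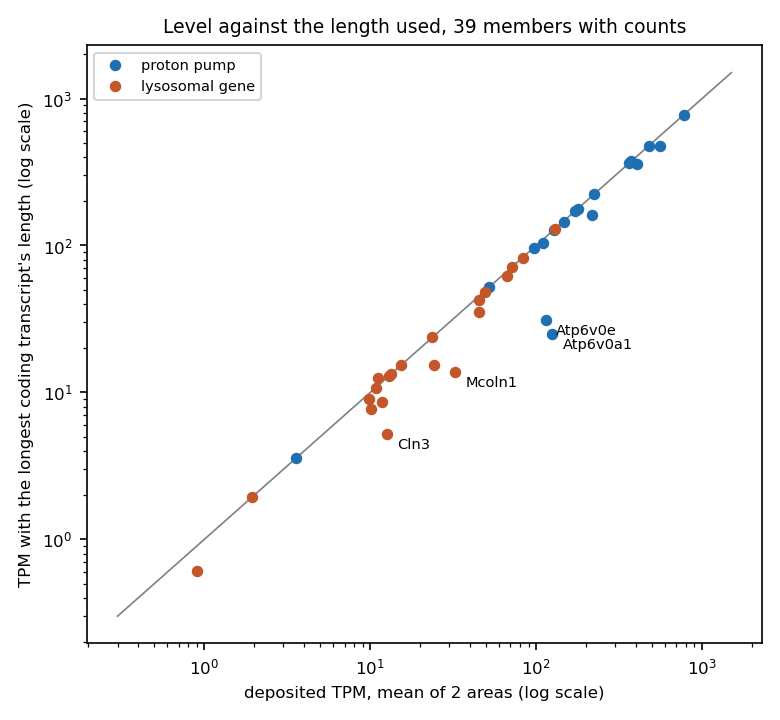
Mean deposited TPM of 2 areas on the horizontal axis against TPM computed with the length of each gene's longest coding transcript, both on log scales, for the 39 members with counts. Most points lie on the line of equal values; Atp6v0a1, Atp6v0e, Mcoln1 and Cln3 are named because they lie under it.

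The areas were then compared for the 39 members with a summed count of at least 10. A two-sided exact binomial test set each gene's counts against the library totals, with Benjamini-Hochberg adjustment over 16636 genes. The comparison is between 2 libraries and not between conditions, and it treats each read as an independent draw. At 0.05 it called 28 of the 39 members, beside 47.6% of all genes tested and 53.4% of those with a summed count of at least 500. With all counts divided by 10 it called no member, beside 0.703% of all genes, so the calls rest on treating every read as independent. By direction, 24.0% of all genes were called higher in replicate 1 and 23.7% higher in replicate 2.

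Pump and lysosomal genes leaned to different areas. Of 18 pump genes tested, 11 were called higher in replicate 2 and 3 higher in replicate 1. Of 21 lysosomal genes, 10 were called higher in replicate 1 and 4 in replicate 2, and among the 11 enzymes these numbers were 7 and 1. Counting differences of any size, TPM was higher in replicate 1 for 6 of 18 pump genes, 13 of 21 lysosomal genes (Ctsa was equal in both areas) and 9 of 11 enzymes, beside 51.4% of all genes. The median log2 ratio of TPM + 1, replicate 2 over replicate 1, was 0.07 for the pump, -0.15 for the lysosomal genes, -0.24 for the enzymes and -0.01 for all genes tested. The lysosomal median minus the pump median was thus -0.21. The direction of single genes depended on the scale: with spike-in totals in place of gene totals, the median of all genes moved to -0.30, 35 members were called and all 35 were higher in replicate 1, beside 63.9% of all genes called. The pump median was -0.23 and the lysosomal median -0.49 on that scale.

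In single genes most differences were small. Over 1.5-fold on the log2(TPM + 1) scale there were 2 members, Glb1 and Grn, beside 13.1% of all genes tested and 3.29% of those with a summed count of at least 500. With ratios of counts scaled by edgeR's TMM factors, in place of TPM + 1, there were also 2. On that scale Grn fell short at -0.56 and Tfeb passed at 0.94, on 16 and 30 counts. The TMM factors were 1.00 in both areas, and counts scaled by gene totals alone gave the same -0.56 and 0.94. Glb1, with the 119.8 and 31 counts given above, had a log2 ratio of -1.16 and an adjusted p of 1.41e-11 in the exact binomial test. It lies on chromosome 9 from base 114401076 to 114474898 of GRCm38 and shares 165 exonic bases on the same strand with Tmppe, which had 86.2 and 19 counts. Reads in the shared bases could have been assigned to either gene. Grn, with 392 and 257 counts, had a log2 ratio of -0.63 and an adjusted p of 9.08e-06 in the exact binomial test. The transcript Grn-203 held 25.7% of Grn in replicate 1 and 0.64% in replicate 2. Mcoln1 was next among those lower in replicate 2, at -0.54, with 530 and 381 counts.

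Further lysosomal genes lay lower in replicate 2 by similar steps. Tpp1 had 1012 and 758 counts and a log2 ratio of -0.35, Ctsd 1646 and 1292 counts and -0.33, Ppt1 2677 and 2081 counts and -0.32, and Hexa 450 and 342 counts and -0.33. In the other direction, Lamp2 had 1842 and 2330 counts and a log2 ratio of 0.33, with an adjusted p of 1.47e-16 in the exact binomial test. Among pump genes the ratio ran from -0.33 for Atp6v0a2, with 204 and 148 counts, to 0.21 for Atp6v1c1, with 5654 and 6376 counts. Ctsb, Lamp1, Ctsa, Npc1, Cln3 and Gaa were not called, nor were Atp6v1h, Atp6v0a1, Atp6v0e, Atp6ap2 and Tfeb. Atp6v1b2 was called with 7394 and 7533 counts although its TPM was equal, since the test uses counts and the deposited gene length was 2098 bases in replicate 1 and 2195 in replicate 2.

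**Figure D5:**
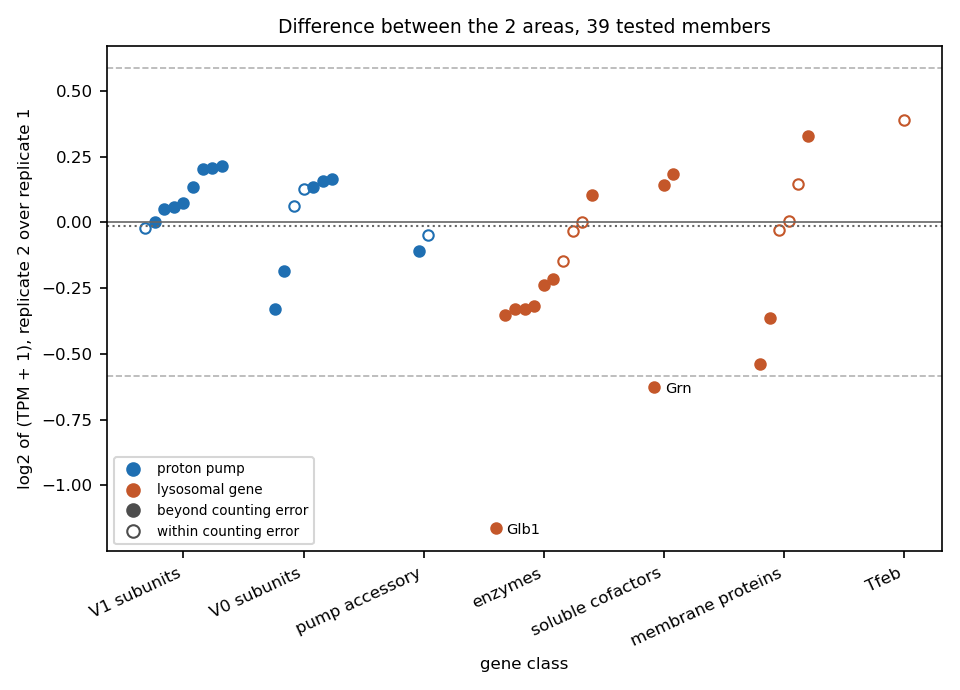
Log2 ratio of TPM + 1, replicate 2 over replicate 1, for the 39 tested members by class, filled where the exact binomial test called the gene and open where it did not, with dashed lines at 1.5-fold and a dotted line at the median of all tested genes. V1 subunits lie mostly above zero and enzymes mostly below it, and Glb1 and Grn lie past the lower dashed line.

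Other gene lists also differed between the areas. Of 33 further soluble enzymes and cofactors tested, 26 were higher in replicate 1 by any amount, with 16 called higher there and 3 called higher in replicate 2. Of 16 further membrane proteins, 11 were higher in replicate 2, with 7 called there and 3 in replicate 1. Of 10 microglia markers 8 were higher in replicate 1, none was at 0 in both areas, and their summed level was 114 and 90.1 TPM. Ctss, the protease cathepsin S, belongs both to the microglia markers and to the further enzymes. Of 6 astrocyte and Bergmann glia markers tested all 6 were higher in replicate 1, with sums of 511 and 468 TPM over the list of 7. Of 5 endothelial markers 4 were higher in replicate 1, with sums of 161 and 137 TPM. All 6 oligodendrocyte markers were higher in replicate 2, with sums of 547 and 666 TPM, and 7 of 8 granule neuron markers were higher there, with sums of 2687 and 2951 TPM. Of 5 Purkinje cell markers 3 were higher in replicate 2, with sums of 105.1 and 172 TPM, most of it from Pcp2 at 91.1 and 158 TPM. The part of these cell types, and of the red blood cell RNA given above, in the differences of the members was not tested.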

How the data were processed

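The authors deposited 1 gene table and 1 transcript table for each library, on mm10 with annotation M4 per the deposited notes. Expected counts, as deposited, are estimated reads per gene or transcript per the file headers. The deposited TPM and FPKM values are corrected by the authors for length and library total, again per the file headers. Score columns, also deposited, hold a posterior SD of the count and interval bounds on TPM. A deposited percent column splits each gene over its transcripts. Neither aligner nor counting tool nor strand setting is named: not given in the sources used here. The exons of 17 members overlap a gene on the opposite strand and those of 4 overlap one on the same strand. Where the other gene has deposited counts, reads may be shared. The same-strand genes that overlap Ctsd and Ctsl have no deposited counts.

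Names and coordinates came from GENCODE M21 on GRCm38, matched without version (42462 of 43346 IDs). Rows for 97 spike-ins and 26248 numeric IDs were left out of gene totals. Levels are deposited TPM; ratios are on the log2(TPM + 1) scale; medians over classes include undetected members. Counts were rounded for the binomial test, which was tested on simulated independent counts. That check does not cover amplified reads, which are not independent. A count of 0 allows 3 counts, or 0.150 and 0.156 counts per 1e6 gene counts. edgeR 4.0.16 (TMM) and DESeq2 1.42.0 gave scaling factors for alternatives only, in R 4.3.3; the rest used Python 3.11.15 with pandas 2.3.3 and SciPy 1.17.1. All 43 members may be named; of the other lists, the 4 highest by mean TPM, the paralogues Tcirg1, Atp6v1e2 and Atp6v1g3 and genes with 0 counts. Ctss, Gm49369 and Tmppe were named after their values were seen. The members and lists were chosen with earlier results of these data known. Alternatives covered scaling, filters, pseudocounts, gene length, the set of members and leaving out each area.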

Additional observations from a re-analysis of the deposited data

How the results depend on the processing

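The pump minus lysosomal difference of 3.06 (log2(TPM + 1)) was 1.67 with the mean over members, 3.48 with only the leading paralogue of each subunit and 2.52 with only the enzymes, and 2.86 to 3.26 with 1 area left out. The share of Atp6v0a1 was 90.3% by counts, 87.5% with the longest coding length and 96.5% with Tcirg1 added (96.8% to 97.7% with 1 area left out). Atp6v0e2 held 72.5% by counts and 80.5% with the longest length (52.8% to 52.9%), and Atp6v1g1 held 55.0% by counts (62.2% to 63.3%). With the deposited posterior mean TPM, which lifts zero counts, Atp6v0d1 held 99.5%, Atp6v1b2 99.99% and Atp6v1c1 99.6%, against 100% with either area left out. Detection gave 38 members in either area alone. Members beyond counting error fell to 0 with counts divided by 10. Members over 1.5-fold apart were 0 with a pseudocount of 5 and 1 with a summed count of at least 500. With spike-in totals the count of members beyond counting error was 35, within 1.5 times of 28, but its directions changed: pump genes called higher in replicate 1 and in replicate 2 went from 3 and 11 to 18 and 0, and lysosomal genes from 10 and 4 to 17 and 0. With ratios of TMM-scaled counts in place of TPM + 1, the members over 1.5-fold apart numbered 2, with Tfeb in place of Grn. The other alternatives moved no count by over 1.5 times and no value past the spread between areas. The comparisons with enzymes only, the longest length, a summed count of at least 500 and the ratio scales were chosen after seeing the data.

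No paired analysis was possible because there is 1 group and no second condition to pair. The 2 areas limit every SD, and reads are not independent molecules, so intervals cover counting error only.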
